A study of Mus with 3 samples.

Results

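The resistin-like molecules Retnla, Retnlb and Retnlg were taken by symbol from the count matrices, and all 3 were found once each among 27998 genes. They were measured in single cells of whole lungs from female mice aged 6 to 12 weeks, in 3 libraries. The WT PBS library came from wild type mice challenged with PBS, the WT OVA library from wild type mice challenged with OVA, and the DJ-1 KO OVA library, called the knockout library here, from DJ-1 KO mice challenged with OVA. Cells of 3 mice were pooled in each library, so that the mice cannot be told apart and each group is 1 library. No difference between groups therefore has a replicate check, and no test was made. Intervals in brackets are 95% intervals for counting error only. For WT PBS the sample title speaks of an OVA challenge whereas the treatment label gives PBS, and the label was followed here. A PBS-challenged DJ-1 KO library was not analysed here, and the labels give no further detail on the DJ-1 allele.

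Resistin-like molecules are small secreted proteins rich in cysteine. RELM-alpha, the product of Retnla, is a textbook product of macrophages and airway epithelium exposed to IL-4 or IL-13, which signal through the IL-4 receptor alpha chain and STAT6. RELM-beta, the product of Retnlb, is best known from goblet cells of the gut and from airway epithelium under type 2 stimulation, and RELM-gamma, the product of Retnlg, from neutrophils and the bone marrow. Resistin itself is encoded by Retn, which was followed beside the members.

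The 3 members are neighbours on mouse chromosome 16 in the RefSeq annotation of GRCm38.p6, with no other RefSeq gene between them. Retnlb (ENSMUSG00000022650) spans positions 48816856 to 48818892, Retnla (ENSMUSG00000061100) 48842609 to 48844461 and Retnlg (ENSMUSG00000022651) 48872608 to 48874498. The gaps are 23716 and 28146 bases, within a span of 57643 bases. How reads that match more than 1 gene of the family were counted is not given in the sources used here.

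After filtering, 3856, 6019 and 4439 cells of the WT PBS, WT OVA and knockout libraries were kept, with median depths of 4091.5, 2086 and 1653 UMIs (unique molecular identifiers, each standing for 1 captured RNA molecule) and 17050940 to 24455007 UMIs in all. The WT PBS and DJ-1 KO OVA libraries shared 372 cell barcodes, against 6 and 5 in the other pairings. The smaller cell of such a pair held a median of 4.91% of its partner's UMIs where it lay in WT PBS and 2.15% where it lay in DJ-1 KO OVA, and it was left out. The larger partners stayed in, 60 of them in WT PBS and 306 in DJ-1 KO OVA. They included 75 of the 120 club-like and goblet-like cells of the DJ-1 KO OVA library, so the levels, shares and ratios that rest on those cells are also given for unshared barcodes alone. Park7, the gene of DJ-1, stood at 135 counts per 1000000 UMIs (CPM) in WT PBS, 101 in WT OVA and 20.8 in DJ-1 KO OVA. Tags at the 3′ end of a transcript do not check a deletion elsewhere in the gene.

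Summed over all kept cells, the members ran in opposite directions (the plot of levels by member and library). Retnla was at 198 CPM (192 to 203) in WT PBS, 2830 in WT OVA and 20095 in DJ-1 KO OVA, from 4832, 66541 and 342631 UMIs. The ratio of WT OVA over WT PBS, called the challenge ratio here, was 14.3 for Retnla, and that of DJ-1 KO OVA over WT OVA, called the genotype ratio, was 7.10 (7.04 to 7.16). Retnlg was highest in WT PBS, at 1175 CPM (1161 to 1188), followed by 494 (485 to 503) in WT OVA and 189 (183 to 196) in DJ-1 KO OVA. Its challenge ratio was 0.421 (0.412 to 0.430) and its genotype ratio 0.383 (0.368 to 0.398). Retnlb was rare, with 9 UMIs in WT PBS, 4 in WT OVA and 226 in DJ-1 KO OVA. Both ratios share the WT OVA library and are given in this order wherever a pair of ratios follows.

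**Figure D1:**
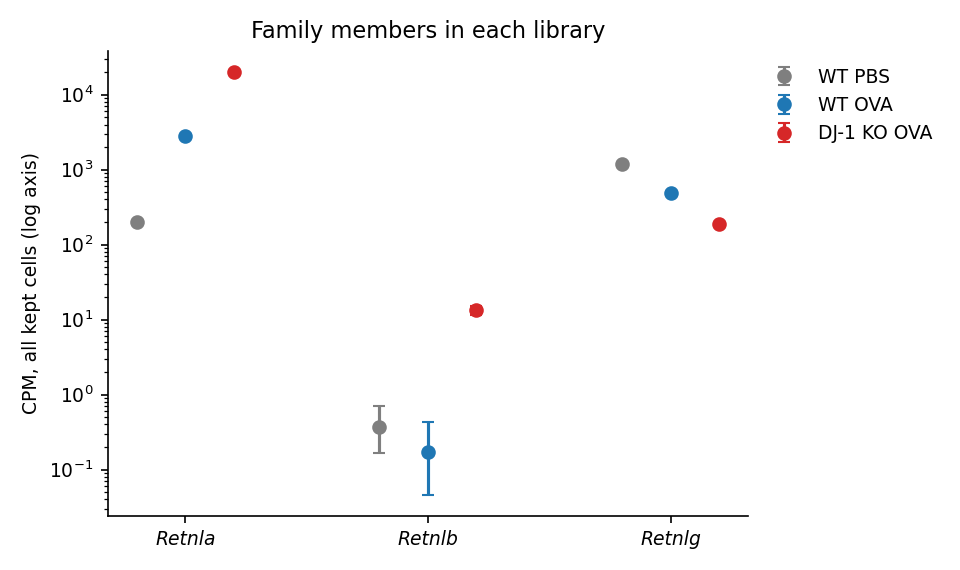
CPM (log axis) of each member over all kept cells of the 3 libraries, with 95% Poisson intervals as bars. Retnla is highest in DJ-1 KO OVA at 20095, Retnlg is highest in WT PBS at 1175, and Retnlb stays under 1 outside DJ-1 KO OVA, where it is at 13.3.

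The background for these ratios was taken from all genes with at least 20 UMIs over both libraries, of which a ratio of at least 2 or at most 0.5 counted as called. For the challenge ratio, 3.12% of 14957 genes were called higher and 2.39% lower, and of the members with enough UMIs Retnla was called higher and Retnlg lower. For the genotype ratio, 5.29% of 14726 genes were called higher and 3.48% lower. There Retnla and Retnlb were called higher and Retnlg lower.

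Single cells and shared barcodes set part of these library levels. In WT PBS, 1 goblet-like cell, the larger partner of a shared barcode, held 3406 of the 4832 Retnla UMIs (70.5%), and without it the library was at 58.5 CPM. Without the highest cell of each library the Retnla ratios were 46.6 and 7.11. Larger partners of shared barcodes held 93.0% of all Retnla UMIs in WT PBS and 82.8% in the knockout library. With cells of unshared barcodes only, Retnla was at 15.4 CPM in WT PBS and 5629 in DJ-1 KO OVA. The challenge ratio was then 184 (165 to 205) and the genotype ratio 1.99 (1.97 to 2.01). Both kept their direction, while the second was just under the 2-fold mark. With the smaller cells of shared barcodes kept, the challenge ratio was 2.81.

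Free RNA was judged from B cell-like cells, a class known to make neither mucus nor surfactant proteins. Their Retnla stood at 1.43 CPM in WT PBS, 58.4 in WT OVA and 346 in DJ-1 KO OVA, from 3, 80 and 142 UMIs. It was found in 0.475%, 7.11% and 33.5% of them, at median depths of 2981, 1299 and 1105 UMIs. At 1000 UMIs per cell the shares were 0.163%, 4.43% and 30.1%. The 6 lymphocyte classes ran from 0.942 to 9.60 CPM in WT PBS, on 16 UMIs in all. They lay closer together in the OVA libraries, at 34.3 to 58.4 CPM in WT OVA and 257 to 346 in DJ-1 KO OVA. Retnla in any class of the DJ-1 KO OVA library was therefore read against this level, and a class at or below the B cell-like level was read as background. Retnlg was at 12.9, 8.76 and 7.32 CPM in B cell-like cells, and Retnlb had no UMI there in any library, which allows up to 1.43, 2.19 and 7.32 CPM.

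Most Retnla UMIs of the kept cells lay in the airway secretory epithelium (the plot of levels by class), but in WT PBS and the knockout library this rested on larger partners of shared barcodes. Club-like cells, known for secretoglobins and named from Scgb1a1, Cyp2f2 and related markers, and goblet-like cells, known for mucins and named from Clca1, Muc5b and related markers, numbered 59, 128 and 120 together. They held 95.1% of all Retnla UMIs in WT PBS, 71.97% in WT OVA and 62.7% in DJ-1 KO OVA, with 1.53%, 2.13% and 2.70% of the cells. In unshared barcodes they held 31.9% in WT PBS and 16.9% in the knockout library, where alveolar type 2-like cells held 55.2% and 74.9%. Their Retnla was at 2477, 17094 and 78357 CPM, giving ratios of 6.90 (6.70 to 7.12) and 4.58 (4.54 to 4.63). In unshared barcodes these ratios were 34.4 (28.5 to 42.0) and 2.60 (2.55 to 2.66), where the median log2 ratio of all genes in the class was itself -0.63 and 0.82. The family genes were left out when cells were clustered, so class membership did not use them.

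**Figure D2:**
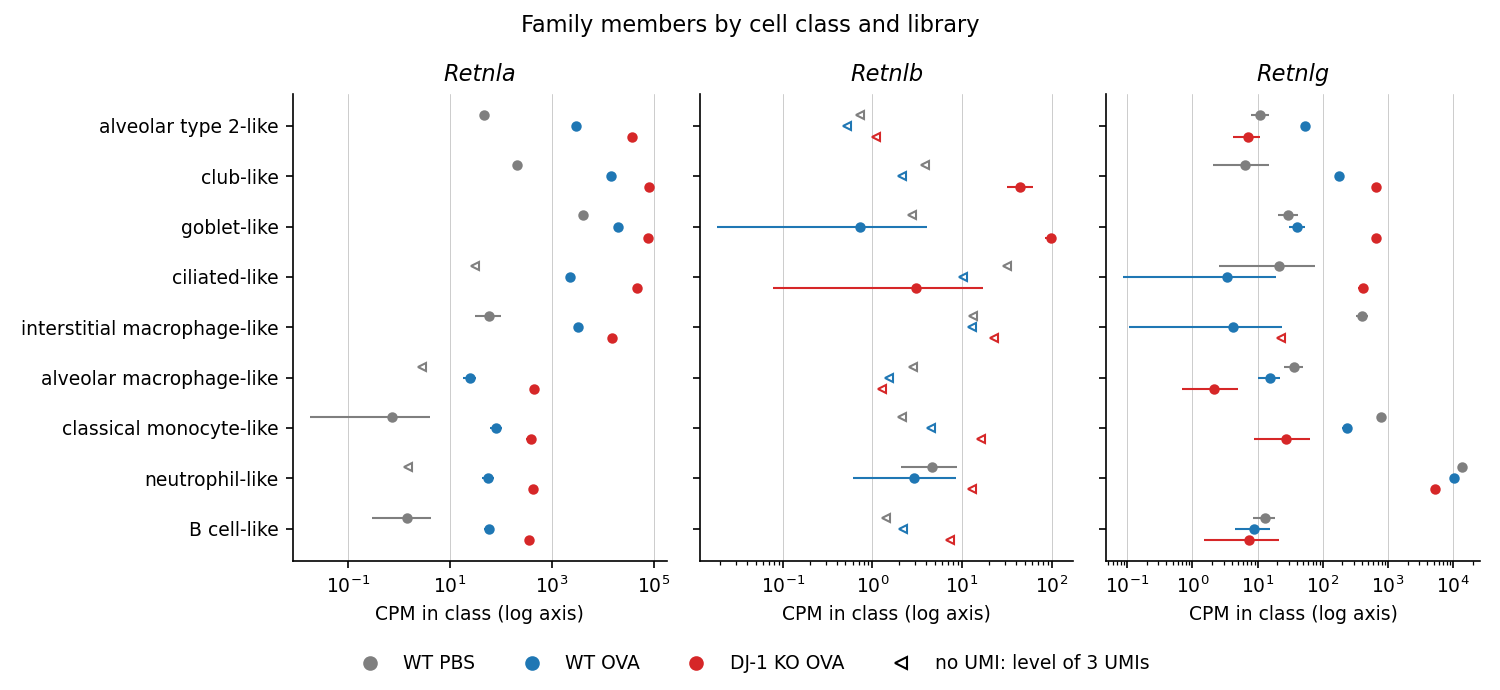
CPM (log axes) of Retnla, Retnlb and Retnlg in 9 cell classes of the 3 libraries, with 95% Poisson intervals; open triangles mark classes with no UMI and stand at the level of 3 UMIs. Retnla is highest in club-like and goblet-like cells, Retnlb in goblet-like and club-like cells of DJ-1 KO OVA, and Retnlg in neutrophil-like cells.

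The median goblet-like cell carried more Retnla UMIs than the median club-like cell in all 3 libraries. A goblet-like cell held a median of 6 Retnla UMIs in WT PBS (highest 3406), 297 in WT OVA (highest 1997) and 1220 in DJ-1 KO OVA (highest 13726). At least 1 Retnla UMI was found in 78.3%, 96.5% and 100% of them. The DJ-1 KO OVA range, from 6 to 13726 UMIs, overlapped with that of both other libraries. Levels of 4106, 19783 and 77124 CPM gave ratios of 4.82 (4.67 to 4.97) and 3.898 (3.85 to 3.95). The WT PBS level was 1011 CPM without its highest cell, and the challenge ratio without the highest cells was 18.7. In unshared barcodes the challenge ratio was 32.0 (23.7 to 44.5), with 4 WT PBS cells. The genotype ratio was 3.97 (3.87 to 4.07) there, from 23 knockout cells at 78522 CPM, close to the larger partners at 77035 CPM.

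Club-like cells differed from goblet-like cells on that point. Their median was 0 Retnla UMIs per cell in WT PBS, 35 in WT OVA and 175.5 in DJ-1 KO OVA, and their highest cells held 44, 2632 and 9907. Over all of them Retnla was at 208 CPM (177 to 242), 14472 and 81011, with ratios of 69.7 (59.7 to 81.9) and 5.60 (5.51 to 5.69). The 24 larger partners among the DJ-1 KO OVA club-like cells stood at 91495 CPM and the other 22 cells at 10789 CPM. With unshared barcodes only, the challenge ratio was 32.8 (25.8 to 42.4) and the genotype ratio turned to 0.746 (0.703 to 0.790). That filter left out 24 knockout and 0 WT OVA club-like cells, so part of the knockout class was set against the whole WT OVA class. The higher Retnla of knockout club-like cells was thus seen only with larger partners kept. Why these differed from the other cells was not tested. Ciliated-like cells, 7 to 12 per library, were too few to compare. Of their Retnla in DJ-1 KO OVA, 5471 UMIs lay in 1 cell that also held 28296 UMIs of the club cell gene Scgb1a1.

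Alveolar type 2-like (AT2-like) cells, the surfactant-making cells of the alveolus, had a higher genotype ratio of Retnla than goblet-like, club-like or interstitial macrophage-like cells. Their Retnla stood at 46.6 CPM in WT PBS, 2913 (2869 to 2957) in WT OVA and 37473 (37243 to 37704) in DJ-1 KO OVA. The ratios were 62.5 (54.2 to 72.5) and 12.9 (12.7 to 13.1), and in unshared barcodes 61.3 (53.1 to 71.2) and 9.73 (9.56 to 9.91). With the smaller cells of shared barcodes kept, the challenge ratio was 3.27. In this class 3.52% of genes were called higher and 1.53% lower by the challenge ratio, and 6.45% and 3.03% by the genotype ratio. AT2-like Retnla was 32.5-fold, 49.9-fold and 108-fold over the B cell-like level of the same library. It made up 3.93%, 25.1% and 29.7% of each library's Retnla. In the unshared barcodes of WT PBS and the knockout library it made up 55.2% and 74.9%, the largest share of any class. Leaving out larger partners took 31 of 59 airway secretory-like and 5 of 304 AT2-like cells in WT PBS. In the knockout library it took 75 of 120 and 80 of 297, so the unshared shares follow in part from the cells left out.

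The difference lay in how many AT2-like cells held Retnla as well as in how much each held. Retnla was found in 16.8%, 34.4% and 92.3% of 304, 802 and 297 AT2-like cells, and in 3.70%, 19.4% and 83.2% at 1000 UMIs per cell. The median cell held 0 Retnla UMIs in both wild type libraries and 177 in the knockout library, with highest cells of 30, 989 and 2093. Cells with at least 100 Retnla UMIs numbered 0, 46 (5.74%) and 173 (58.3%). The ranges overlapped, since 23 DJ-1 KO OVA cells held none. Scgb1a1 in AT2-like cells was at 610, 3439 and 1356 CPM, so from WT OVA to the knockout library this abundant club cell transcript was lower and Retnla higher.

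The AT2-like class joins clusters whose makeup differed between libraries (the plot of Retnla per cell). Cluster 4, led by the surfactant genes Sftpc and Sftpb and by Lyz1, held 302, 742 and 113 cells, and cluster 14, led by the anion exchanger Slc26a4, the chitinase Chia1 and the cytokine Il33, held 1, 49 and 183. Within cluster 4 Retnla was at 46.8, 1501 and 15751 CPM, a genotype ratio of 10.5 (10.2 to 10.8). Within cluster 14 it was at 16334 CPM in WT OVA and 47094 in DJ-1 KO OVA, a genotype ratio of 2.88 (2.82 to 2.95). Retnla was thus higher in DJ-1 KO OVA inside each cluster, and higher in cluster 14 than in cluster 4 within each of the OVA libraries. In cluster 14, 44.9% of WT OVA cells and 80.3% of DJ-1 KO OVA cells held at least 100 Retnla UMIs, against 3.24% and 23.0% in cluster 4. The surfactant gene Sftpc stood at 165740, 120725 and 86706 CPM over all AT2-like cells.

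**Figure D3:**
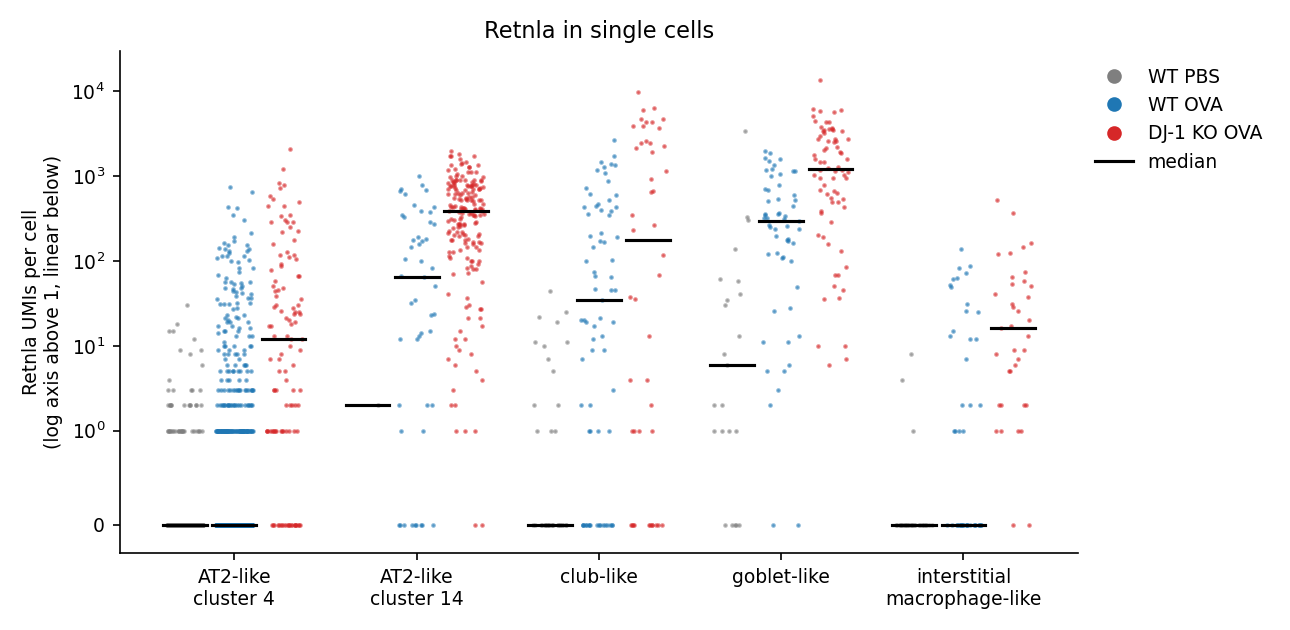
Retnla UMIs per cell (symmetrical log axis, linear below 1) in clusters 4 and 14 of AT2-like cells and in club-like, goblet-like and interstitial macrophage-like cells of the 3 libraries; each point is a cell and black lines are medians. The DJ-1 KO OVA medians are 12 and 392 in clusters 4 and 14 of AT2-like cells and 1220 in goblet-like cells.

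Among macrophages, Retnla was found above background in the interstitial macrophage-like cells, which were led by the complement genes C1qa, C1qb and C1qc. With 30, 47 and 37 cells, they stood at 57.4 CPM (30.5 to 98.1) in WT PBS, 3225 (3000 to 3463) in WT OVA and 15281 (14623 to 15960) in DJ-1 KO OVA. Retnla was present in 10.0%, 48.9% and 94.6% of them, with medians of 0, 0 and 16 UMIs and highest cells of 8, 138 and 518. The ratios were 56.2 (32.7 to 106) and 4.74 (4.36 to 5.16). The WT PBS level rested on 13 UMIs, 8 of them in 1 cell, and without the highest cells the challenge ratio was 121. No cell of this class carried a shared barcode. The class held 40.0, 55.2 and 44.1 times the B cell-like level of its own library, and the DJ-1 KO OVA level was 11900 CPM without its highest cell.

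Alveolar macrophage-like cells, named from Chil3, Marco and related markers, stood close to the free RNA. They held 0 Retnla UMIs in 59 WT PBS cells, 48 in 190 WT OVA cells and 1057 in 262 DJ-1 KO OVA cells. The WT OVA level of 24.4 CPM was 0.418 of the B cell-like level, and the DJ-1 KO OVA level of 446 CPM was 1.29 times it (1.08 to 1.55). Of the knockout UMIs, 193 lay in 1 cell, without which the class was at 369 CPM. At 1000 UMIs per cell, 35.6% of the DJ-1 KO OVA cells held Retnla, against 30.1% of B cell-like cells. With unshared barcodes only, the DJ-1 KO OVA level was 731 CPM, from 664 UMIs in 193 cells.

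A second measure of free RNA was the number of Retnla UMIs per 1000 UMIs of Scgb1a1, a gene these cells are not known to make. In the knockout library it was 200 (166 to 240) in B cell-like, 219 in CD4 T-like, 190 in natural killer-like and 235 in neutrophil-like cells. Alveolar macrophage-like cells had 257 (240 to 275), 212 without their highest cell and 225 (207 to 245) in unshared barcodes. Interstitial macrophage-like cells had 7872 (6912 to 8996). In WT OVA the values were 47.1 (37.1 to 58.9) in B cell-like, 31.8 (23.3 to 42.3) in alveolar macrophage-like and 3823 (3265 to 4494) in interstitial macrophage-like cells. By this measure Retnla in alveolar macrophage-like cells lay within or just above the range of the lymphocyte and neutrophil classes, also in unshared barcodes, where its CPM was above that of the lymphocytes. Retnla in interstitial macrophage-like cells lay far above that range.

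Alveolar macrophage-like cells held other genes of alternative activation in spite of this. Of 18 genes on that list 16 were in the matrices, and by the challenge ratio 6 of 11 with enough UMIs were called higher and none lower, where 4.37% and 5.29% of all genes in the class were. The list's median log2 ratio was 1.90, against -0.11 over all genes. Arg1, the arginase that competes for arginine, was 10.2-fold higher, from 19 against 1 UMIs. Irf4, a transcription factor that B cells also make, was 38.1-fold higher, from 71 against 1 UMIs, and the chitinase-like Chil3 3.74-fold. In unshared barcodes Arg1 was at 7.48 (1.19 to 311) and Irf4 at 28.0 (4.86 to 1120). Irf4 stood at 36.1 CPM in WT OVA, below the 126 CPM of B cell-like cells. By the genotype ratio 8 of 14 were called higher and none lower (5.18% and 7.14% of all genes), with a median of 1.84 against -0.07. Arg1 was 53.2-fold and the eotaxin Ccl24 56.1-fold higher, while Chil4, at 23.2-fold, stood at 153 CPM, near its 132 CPM in B cell-like cells. Klf4 was at 0.674 and 1.18 times. In unshared barcodes 9 of 14 were called higher and none lower by the genotype ratio, where 6.63% and 11.6% of all genes were. The median was 1.20 against -0.06. Arg1 was at 90.9 and Ccl24 at 89.7 there, while Ccl17 was at 1.39.

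Nearly all Retnlb UMIs came from airway cells of the knockout library. Over all cells it stood at 0.368 CPM (0.168 to 0.699) in WT PBS, 0.170 (0.0464 to 0.436) in WT OVA and 13.3 (11.6 to 15.1) in DJ-1 KO OVA. The challenge ratio was 0.462 (0.104 to 1.66), an interval that includes 1, and the genotype ratio 77.9 (30.01 to 288). Of the 226 DJ-1 KO OVA UMIs, 182 (80.5%) lay in goblet-like cells and 39 (17.3%) in club-like cells. Another 3 were in a single mesothelial-like cell that also held 11190 Scgb1a1 UMIs, 1 was in a ciliated-like and 1 in a CD4 T-like cell.

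Goblet-like cells of DJ-1 KO OVA held Retnlb at 97.2 CPM (83.6 to 112), in 21 of 74 cells, and club-like cells at 44.9 CPM, in 8 of 46. The same classes held 1 UMI in WT OVA and none in WT PBS. In the airway secretory-like cells together, the genotype ratio was 226 (40.1 to 8961), an interval whose width comes from that 1 UMI. In this class 5.90% of genes were called higher and 3.34% lower in that comparison. AT2-like cells had no Retnlb UMI in any library, although many of them held Retnla.

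Retnlb was concentrated in few cells. The highest, a goblet-like cell of 14832 UMIs with 755 UMIs of the goblet cell gene Clca1, held 85 Retnlb UMIs, or 38.5% of those in airway cells, and the top 5 cells held 73.8%. Of the 221 airway UMIs, 217 lay in larger partners of shared barcodes and 4 in cells of unshared barcodes, all goblet-like. The levels were 86.2 and 17.8 CPM in these cells. In unshared barcodes the airway genotype ratio was 49.9 (4.94 to 2459), and over all cells, 5 UMIs against 4, it was 2.81 (0.604 to 14.2). With every cell weighted alike, it was 3.31 over all cells. All 29 airway cells with Retnlb also held Retnla, and 27 of them held all 3 members.

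Outside the airway, Retnlb was found mostly in neutrophil-like cells, which are rich in Retnlg. All 9 WT PBS UMIs and 3 of the 4 WT OVA UMIs were in neutrophil-like cells, beside 27246 and 10451 Retnlg UMIs there. Neutrophil-like cells of DJ-1 KO OVA had none beside 1219, which allows up to 12.99 CPM. Whether these are reads of Retnlg counted for its neighbour was not tested.

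Retnlg was highest in neutrophil-like cells, the class led by Csf3r, S100a8 and S100a9. Their level was 13898 CPM (13733 to 14064) in WT PBS, 10161 (9967 to 10358) in WT OVA and 5279 (4986 to 5583) in DJ-1 KO OVA. The ratios of 0.731 (0.715 to 0.748) and 0.520 (0.489 to 0.551) both missed the 2-fold mark, which 3.37% and 8.65% of the class's genes passed on the lower side and 4.01% and 7.11% on the higher. Under median-of-ratios scaling, which moved every gene of the class alike, the genotype ratio was 0.442 and passed it. A neutrophil-like cell held a median of 25 Retnlg UMIs in WT PBS, 10 in WT OVA and 3 in DJ-1 KO OVA, at median depths of 2946, 1324 and 983 UMIs. It was detected in 96.5%, 95.5% and 79.3% of them, and in 94.6%, 95.1% and 81.3% at 1000 UMIs per cell. No DJ-1 KO OVA neutrophil-like cell had a shared barcode.

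The number of neutrophil-like cells moved with the library level of Retnlg. They made up 15.4%, 10.6% and 4.80% of the kept cells. Progenitor-like cells marked by Rag1 and Dntt made up 17.6% of the knockout library, against 0.752% and 0.149% of the WT PBS and WT OVA libraries, and without them the genotype ratio of Retnlg over all cells was 0.404. With cells thinned to 1000 UMIs it was 0.159. Cell numbers in the lung and recovery of cells for the libraries cannot be told apart.

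Neutrophil-like cells also fell into a mature and a granule-rich cluster. The larger one stood at 12326, 9573 and 4929 CPM of Retnlg. The smaller, led by the granule genes Ngp, Camp and Ltf of immature neutrophils, with 23, 22 and 2 cells, stood at 28571, 17262 and 21394 CPM, with 2 cells behind the last value. Other neutrophil genes gave a context for the DJ-1 KO OVA library. Of 22 granule and activation genes, 0 were called higher and 1 lower by the challenge ratio (4.01% and 3.37% of all genes). The lower one was the chemokine-like Prok2 at 0.350, and the list's median log2 ratio was 0.03 against 0.11 over all genes. By the genotype ratio the median was -0.53 against 0.07. There 0 of 21 were called higher and 5 lower (7.11% and 8.65% of all genes). These were Camp at 0.135, Ngp at 0.372, S100a8 at 0.414, Ltf at 0.418 and Wfdc21 at 0.467. The receptors Csf3r and Cxcr2 were at 1.01 and 1.38.

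Retnlg was set beside S100a8, a calcium-binding protein abundant in neutrophils. Per 1000 S100a8 UMIs, neutrophil-like cells held 137, 141 and 178 Retnlg UMIs. B cell-like cells held 129 and 150 in the wild type libraries. The 600 in DJ-1 KO OVA rested on 5 S100a8 UMIs. Classical monocyte-like cells held 151, 83.3 and 78.1, with Retnlg at 773, 233 and 26.96 CPM and S100a8 at 5123, 2802 and 345 CPM. AT2-like cells held 115, 231 (204 to 262) and 514 (279 to 916), the last from 37 S100a8 UMIs. In the wild type libraries the B cell-like and monocyte-like proportions thus ran near or below that of neutrophil-like cells, and in WT OVA the AT2-like proportion above it. Retnlg of classical monocyte-like cells stood above the B cell-like 12.9, 8.76 and 7.32 CPM, with 5 UMIs behind the knockout value. How much of it these cells made was not tested. Single cells account for most Retnlg in 2 further classes: 92 UMIs in an interstitial macrophage-like cell of WT PBS with 488 S100a8 UMIs, and 134 in a smooth muscle or myofibroblast-like cell of WT OVA with 313.

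Airway secretory-like cells did not keep that proportion, and Retnlg there ran in the opposite direction to neutrophils. It stood at 19.9 CPM (14.04 to 27.5) in WT PBS, 111 (99.0 to 124) in WT OVA and 663 (632 to 694) in DJ-1 KO OVA, from 37, 311 and 1816 UMIs. The ratios were 5.57 (3.95 to 8.06) and 5.97 (5.29 to 6.75), in a class where 4.12% and 5.90% of genes were called higher and 4.02% and 3.34% lower. The challenge ratio turned to 0.757 with the smaller cells of shared barcodes kept. Per 1000 S100a8 UMIs, goblet-like cells held 1778, 2667 and 42966 and club-like cells 333, 366 and 5377. These cells supplied 0.129% of all Retnlg UMIs in WT PBS, 2.68% in WT OVA and 56.2% in DJ-1 KO OVA, where neutrophil-like cells supplied 37.8%. Neutrophil-like cells supplied 94.8% and 89.9% in the wild type libraries. The knockout shares rested on larger partners of shared barcodes, which held 1693 of the 1816 airway UMIs. In unshared barcodes airway secretory-like cells supplied 8.89% of the knockout Retnlg and neutrophil-like cells 88.1%.

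**Figure D4:**
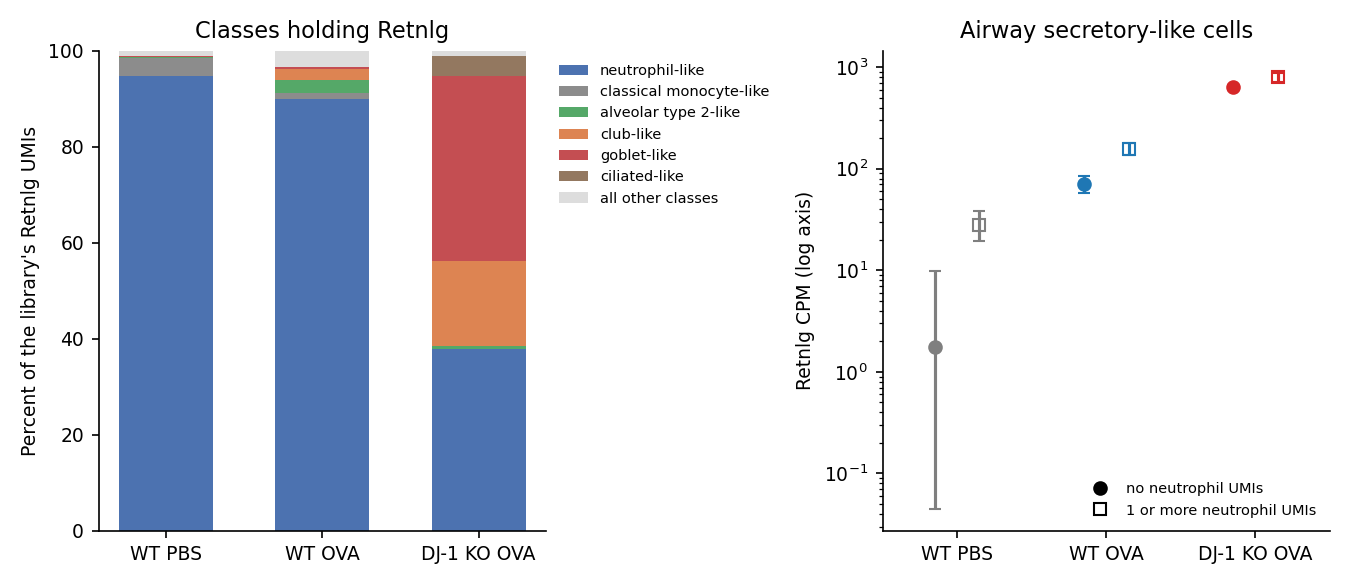
Left, stacked bars give the percentage of each library's Retnlg UMIs by cell class; right, Retnlg CPM (log axis) in airway secretory-like cells without (filled circles) and with (open squares) UMIs of S100a8, S100a9 or Csf3r, with 95% intervals. The airway share is 56.2% in DJ-1 KO OVA (8.89% in unshared barcodes). The level there is 633 (601 to 667) in cells without these UMIs and 801 (722 to 885) in the 12 cells with them.

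The airway values were repeated in cells with no UMI of the neutrophil genes S100a8, S100a9 or Csf3r. Such cells numbered 30, 83 and 108 and held 1, 104 and 1434 Retnlg UMIs, or 1.77, 70.7 and 633 CPM (601 to 667). The genotype ratio was 8.96 (7.34 to 11.1), so the difference was as large in cells free of these transcripts. In unshared barcodes, with 42 knockout cells at 417 CPM, it was 5.91 (4.37 to 7.97). Over all airway secretory-like cells of unshared barcodes, the median log2 ratio of all genes was 0.82 in that comparison. Cells with at least 1 such UMI stood at 27.9, 156 and 801 CPM. In WT OVA, 1 of the 13 airway cells with at least 5 Retnlg UMIs held 674 UMIs of the neutrophil genes, and 6 of the 13 held none. Of the 49 such cells in the knockout library 40 held none.

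Both airway classes and both kinds of barcode held Retnlg in DJ-1 KO OVA. Goblet-like cells stood at 29.6, 40.5 and 666 CPM in the 3 libraries, with ratios of 1.37 (0.870 to 2.18), an interval that includes 1, and 16.4 (12.6 to 21.9). A single WT PBS cell, a larger partner, held 26 of the 32 UMIs there, and without the highest cells the challenge ratio was 6.16 in goblet-like and 12.7 in all airway secretory-like cells. Club-like cells stood at 6.45, 180 and 656 CPM, with ratios of 27.9 (11.8 to 86.6) and 3.65 (3.14 to 4.25). In DJ-1 KO OVA airway cells, larger partners were at 673 CPM and cells of unshared barcodes at 548 CPM. With unshared barcodes only, the genotype ratio was 4.94 (3.97 to 6.10), and the challenge ratio 24.2 (4.30 to 957), the latter from 1 WT PBS UMI. In those cells 41.1% of all genes were called higher by the genotype ratio, with a median log2 ratio of 0.82. By the challenge ratio 31.3% were called lower, with a median of -0.63.

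Retnla and Retnlg lay in the same airway cells but in unlike proportion from class to class (the plot of members in DJ-1 KO OVA airway cells). Of 79 airway cells with Retnlg in DJ-1 KO OVA, 78 also held Retnla. For each 1000 Retnla UMIs, DJ-1 KO OVA goblet-like cells held 8.63 Retnlg UMIs, club-like cells 8.10 and ciliated-like cells 8.89, whereas AT2-like cells held 0.187 and interstitial macrophage-like cells 0. In unshared barcodes, goblet-like cells held 75 Retnlg beside 8757 Retnla UMIs, club-like cells 48 beside 1218 and ciliated-like cells 0 beside 20. AT2-like cells held 9 beside 44111 there. The near-equal airway proportions thus rested on larger partners. In WT OVA, club-like cells held 12.4, goblet-like cells 2.05 and AT2-like cells 18.6, with 6.915 in cluster 4 and 13.2 in cluster 14 of the latter. The AT2-like proportion thus lay below both airway classes in the knockout library, while that of cluster 4 in WT OVA lay between them.

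**Figure D5:**
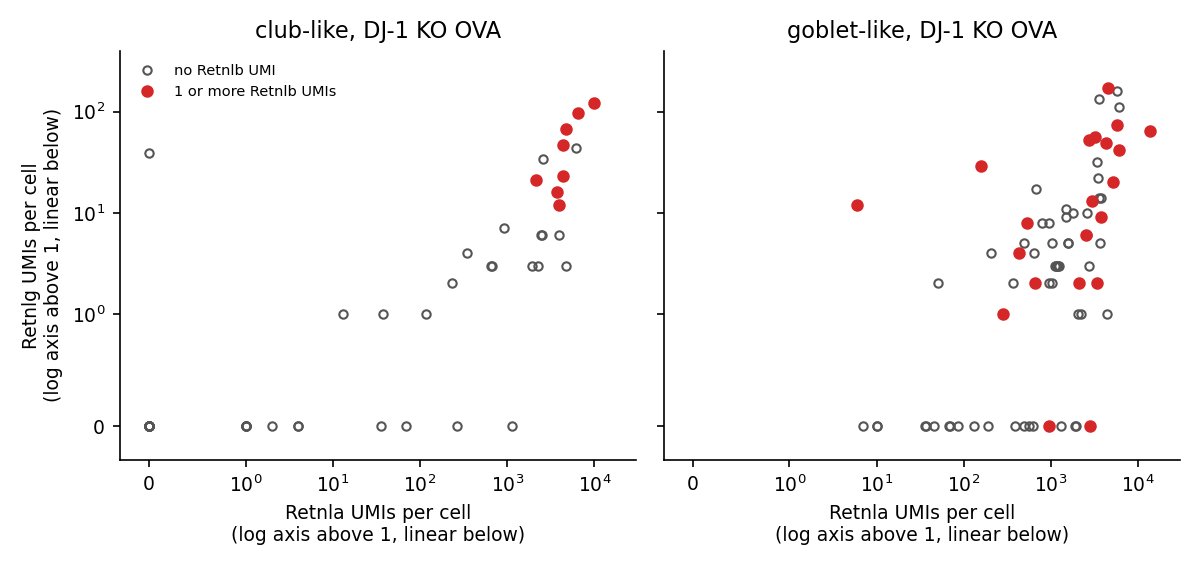
Retnla against Retnlg UMIs per cell (symmetrical log axes, linear below 1) in club-like and goblet-like cells of DJ-1 KO OVA; filled red points are cells with at least 1 Retnlb UMI. All 29 cells with Retnlb hold Retnla, and 27 of them hold all 3 members.

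In AT2-like cells Retnlg stood at 11.0, 54.3 and 7.01 CPM. The challenge ratio was 4.92 (3.59 to 6.88) and the genotype ratio 0.129 (0.0767 to 0.205). Of the 311 WT OVA UMIs, 139 lay in the 11 cells of cluster 30, in which neutrophil markers scored next to AT2 markers, and 82 in 1 cell of cluster 14. The summed level of 11 neutrophil markers in AT2-like cells moved the same way, at 420, 709 and 323 CPM. Its part in the result was not tested. Within cluster 4 of the AT2-like cells, the Retnlg ratios were 1.49 (0.926 to 2.45) and 0.355 (0.0710 to 1.10), intervals that include 1.

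The fourth family gene, Retn, held 133, 80 and 41 UMIs, of which 116, 67 and 11 were in neutrophil-like cells at 59.2, 65.1 and 47.6 CPM. Of its 41 knockout UMIs 28 lay in 1 alveolar macrophage-like cell.

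Type 2 cytokines known to act upstream of the family were followed over all cells. Of 17 genes for type 2 cytokines, their receptors and signalling, 14 had enough UMIs for the challenge ratio. Of these 1 was called higher and none lower (3.12% and 2.39% of all genes). The higher one was the IL-33 receptor Il1rl1 at 2.67-fold, and the median log2 ratio was 0.06 against 0.02 over all genes. The challenge ratio of Il13 in unshared barcodes was 0.541 (0.233 to 1.20), from 11 against 19 UMIs, an interval that includes 1. By the genotype ratio 7 of 16 were called higher and none lower (5.29% and 3.48% of all genes). The median was 0.43 against 0.07. The cytokine Il13 was 21.2-fold higher, from 169 against 11 UMIs, and Il4 8.45-fold, from 49 against 8. The signalling inhibitors Socs1 and Cish were 2.77-fold and 2.12-fold, the decoy receptor Il13ra2 2.56-fold, Il1rl1 2.54-fold and its ligand Il33 2.496-fold. Of the signalling chain, Il4ra was at 1.07, Il13ra1 at 1.05 and Stat6 at 0.789. In unshared barcodes Il4ra was at 1.44, Il13ra1 at 0.779 and Stat6 at 0.931. The kinases Jak1, Jak2, Jak3 and Tyk2 were there at 1.54, 1.75, 1.71 and 1.45, and the receptor chain Il2rg at 1.43. The median log2 ratio of all genes in unshared barcodes was 0.20. Clusters rich in some of these genes differ in size between libraries, and fewer cells of a type cannot be told apart from less RNA per cell in such sums.

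Epithelial genes known to respond to IL-13 were read in the classes that made Retnla. In airway secretory-like cells, 9 of 12 with enough UMIs were called higher and none lower by the challenge ratio. Of all genes in the class 4.12% and 4.02% were. The median log2 ratio was 2.45 against -0.02 over all genes. The mucin Muc5ac was 13.99-fold, Clca1 12.2-fold and the lectin Itln1 21.9-fold higher. In unshared barcodes, with 28 WT PBS cells, 9 of 12 were called higher and 1 lower, where 6.17% and 31.3% of all genes were. The median was 3.46 against -0.63. Clca1 was at 95.1 (62.8 to 152) and Muc5ac at 7.50 (3.62 to 18.7) there. By the genotype ratio in all airway secretory-like cells, 9 of 13 were called higher and 1 lower (5.90% and 3.34% of all genes). The median was 1.39 against 0.16. Chil4 was 18.9-fold, Slc26a4 12.8-fold and Muc5ac 2.85-fold, and the eotaxin Ccl24 was at 0.0568. The knockout level of Ccl24, 1.46 CPM from 4 UMIs, was below the 12.2 CPM of B cell-like cells and was read as background. In unshared barcodes 6 of 12 were called higher and 2 lower by the genotype ratio, where 41.1% and 5.96% of all genes were. The median was 0.95 against 0.82. Chil4 was at 20.8-fold there, and Slc26a4 had too few UMIs to be counted. By the challenge ratio, the median of the list in AT2-like cells was 1.98 against 0.08. There 5 of 7 were called higher and none lower (3.52% and 1.53% of all genes). Of these 5, Clca1, Muc5b and Tff2 stood below their B cell-like level in WT OVA (Clca1 at 8.03 against 24.1 CPM), which was read as background. Slc26a4, at 3.94-fold, and Fcgbp, at 2.35-fold, stood above it. By the genotype ratio 2 of 7 were called higher and none lower (6.45% and 3.03% of all genes). The median was -0.03 against 0.10. Slc26a4 was 12.7-fold higher, and Chil4, at 34.1-fold, stood at 41.7 CPM, below the 132 CPM of B cell-like cells. Several of these genes, Clca1 and Slc26a4 among them, also led the clusters.

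Genes reported as binding partners of resistin family proteins were few. None of the 5 (Cap1, Tlr4, Btk, Ror1 and Dcn) was called by either ratio, where 2.39% to 5.29% of all genes were called in each direction, so little can be read from the count. Tlr4, the lipopolysaccharide receptor, was at 1.63 and 1.33 times, Cap1, the adenylyl cyclase-associated protein, at 0.985 and 1.13, and the proteoglycan Dcn at 0.745 and 0.826. The list's median log2 ratios were -0.02 and 0.18, against 0.02 and 0.07 over all genes.

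The genes most alike to each member were ranked by Pearson correlation of log2(CPM + 1) over 46 class sums of at least 50 cells, among 11865 genes. For Retnla these were the antibody transporter Pigr (0.838), Scgb1a1 (0.786), Chil4 (0.779), Clca1 (0.772) and Wfdc2 (0.772). For Retnlg they were Gm5483 (0.882), S100a9 (0.874), Trem3 (0.869), F5 (0.865) and Il1f9 (0.864). For Retnlb, with UMIs in only 6 of the 46 sums, they were Pla2g4c (0.693), Itln1 (0.689), Adra2a (0.689), Capn9 (0.682) and Fut9 (0.678). These are descriptions, since sums of 1 library share its depth and its free RNA.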

How the data were processed

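Libraries of whole-lung cells were made with the v3 reagents of the 10x 3′ kit, per the labels' protocols. The authors deposited unnormalized UMI counts for each gene in each barcode; the submitters' processing notes name Cell Ranger, STAR and mm10, and the file headers software version 3.1.0. The annotation release is not given in the sources used here. The libraries held 4556, 6406 and 4666 barcodes and 26548669, 24438516 and 17339386 UMIs.

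The filter asked for 200 detected genes or more and no more than 20% mitochondrial UMIs (4214, 6092 and 4506 cells passed). Scrublet at an expected rate of 0.06 removed 56, 73 and 2 doublets; since it marked so few DJ-1 KO OVA cells, a score limit of 0.25, which marks 74, 159 and 75 cells, was an added alternative. Of barcodes shared by WT PBS and DJ-1 KO OVA the smaller cell was left out (302 and 65 cells). Cells were clustered with scanpy 1.11.5 (2000 variable genes without Retnla, Retnlb, Retnlg and Retn; 30 principal components, 15 neighbours, leidenalg 0.10.2, resolution 1) in Python 3.11.15. The 31 clusters were named "-like" from 40 marker lists where the score reached 1 and at least 3 markers were found in 10% of cells. This gave 25 classes. Names are rebuilt here and are not the authors'.

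Counts were summed by library and class and given as CPM. CPM intervals are exact Poisson, ratio intervals exact conditional binomial, at 95%, with SciPy 1.17.1. Where a class had no UMI, the floor was 3 UMIs. With 1 library per group no test across samples was possible, and p-values are not given. The summing and the interval code were tested on simulated data. A gene counted as called at a ratio of at least 2 or at most 0.5 with at least 20 UMIs over both libraries. The named genes are the members, Retn, the markers, 5 gene lists (79 genes, 77 found; within each list chiefly the highest and lowest ratios) and the 5 genes most alike to each member. The members and lists were chosen with earlier results of these data known. Alternatives were other filters, doublets, shared barcodes, scaling, clustering and thinning to 1000 UMIs. Leaving out the highest cell, the larger cells of shared barcodes within classes, shares and gene lists, cells with neutrophil UMIs and the Rag1 and Dntt progenitor-like cells were chosen after seeing the data.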

Additional observations from a re-analysis of the deposited data

Results flagged for a closer look

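Retnlg differed in direction between cell classes of the same libraries, and the difference between classes was not tested, since each group is 1 library. In WT OVA over WT PBS its ratio was 4.92 in AT2-like and 5.57 in airway secretory-like cells, while it was 0.731 in neutrophil-like cells. The ratio of DJ-1 KO OVA over WT OVA was 5.97 in airway secretory-like cells, against 0.129 in AT2-like and 0.520 in neutrophil-like cells. Within cluster 4 of the AT2-like cells, the 2 ratios were 1.49 (0.926 to 2.45) and 0.355 (0.0710 to 1.10), intervals that include 1. The summed neutrophil markers stood at 45.3, 612 and 167 CPM in airway secretory-like cells, so from WT OVA to DJ-1 KO OVA they were lower and Retnlg higher.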

How the results depend on the processing

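Each group is 1 library, so no replicate could be left out. No paired analysis was possible because each group has 1 library and the result comes from no test. Ratios are given as the challenge ratio (WT OVA over WT PBS) and then the genotype ratio (DJ-1 KO OVA over WT OVA). For 10 ratios (the members over all cells, Retnla in AT2-like and Retnlg in neutrophil-like cells), 92 alternative values were computed: 60 stayed within the counting interval, 32 moved and 0 turned direction. With the smaller cells of shared barcodes kept, the challenge ratio was 2.81 for Retnla in all cells and 3.27 in AT2-like cells, and 0.757 for Retnlg in airway secretory-like cells, a ratio outside those 10, whose direction it turned. With both cells of shared barcodes left out and cells clustered anew, Retnla was at 184 and 1.99 and, in AT2-like cells, at a genotype ratio of 9.94; Retnlb had a genotype ratio of 2.81; Retnlg was at 0.381 and 0.267. With cells weighted alike, Retnla was at 23.4 and 6.48 (AT2-like 51.1 and 14.8), Retnlb at 3.31, and Retnlg at 0.527 and 0.255 (neutrophil-like 0.754). Thinned cells gave 24.9 and 7.23 for Retnla (AT2-like 49.4 and 14.97) and 0.521 and 0.159 for Retnlg (neutrophil-like 0.790), and no value for Retnlb, which had 0 UMIs in a library. Median-of-ratios scaling gave genotype ratios of 6.76 and 0.365 for Retnla and Retnlg, 11.9 for Retnla in AT2-like cells and 0.442 for Retnlg in neutrophil-like cells, a log2 shift of -0.23 for every gene there, which takes Retnlg past the 2-fold mark; the challenge ratio there was 0.665. With doublets kept, the genotype ratio of Retnla was 7.23 (AT2-like 13.3), and without Rag1 and Dntt progenitor-like cells those of Retnla and Retnlg were 7.48 and 0.404. The cause was not tested.

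With 1 UMI in each library in place of 20 over both, the share of genes called grew by more than 1.5 times in most cases. By the challenge ratio it became 5.79% higher and 4.83% lower over all cells, 6.51% and 5.22% in AT2-like, 6.23% and 9.78% in airway secretory-like, 10.1% and 7.13% in neutrophil-like and 6.69% and 9.55% in alveolar macrophage-like cells. By the genotype ratio it became 5.67% lower over all cells, 13.1% higher in AT2-like, 11.2% higher and 5.95% lower in airway secretory-like, 23.1% higher in neutrophil-like, and 8.26% higher and 10.7% lower in alveolar macrophage-like cells.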
